A study of Mus musculus with 3 samples.

Results

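A set of 9 genes that mark oligodendrocyte precursor cells, Pdgfra, Cspg4, Olig1, Olig2, Sox10, Gpr17, Neu4, Enpp6 and Lhfpl3, was followed through 3 midbrain RNA-seq libraries of postnatal day 3 mice. They were taken by symbol from the 49585 genes of the deposited count tables, and each symbol stood on 1 row. All 9 passed the filter on low counts. All libraries came from the C57BL/6 strain and the source given as mid-brain. The wild-type group (WT) was 1 library, and the FGR group was 2 libraries, replicates 1 and 2 (here FGR1 and FGR2), that carry FGR as their genotype, an abbreviation the labels leave unexplained. No treatment is given for either group. Total counts were 46240262 to 58444481 per library. The labels do not state how many animals or litters stand behind FGR1 and FGR2. A p-value here reflects only how far FGR1 and FGR2 spread, as WT was 1 library. With so few libraries, the edgeR fit draws the spread of a gene largely from that of other genes. Sex-linked RNAs differed between FGR1 and FGR2 as between the sexes, so these libraries were not technical repeats of 1 animal. Xist, the RNA that silences an X chromosome in females, was at 541.2 CPM (read counts scaled to a common library size) in WT, 591.1 in FGR1 and 1.71 in FGR2, and 4 Y-linked genes summed to 0, 0.155 and 205.7 CPM.

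Oligodendrocyte precursors are the proliferating glia that give rise to the myelin-forming cells of the central nervous system, and in the mouse midbrain myelination gets under way after birth. The transcription factors Olig1, Olig2 and Sox10 set up the lineage and remain on as the cells mature. The precursors divide in response to platelet-derived growth factor (PDGF) through its receptor Pdgfra and carry the proteoglycan NG2, the product of Cspg4. As they commit to differentiate they switch Pdgfra and Cspg4 down and pass through a stage marked by Gpr17, and later by Enpp6, before myelin genes come on.

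Promoter sequences were held for 6 of the 9 genes in the RefSeq table (build GRCm38.p6). Those of Pdgfra and Enpp6, which were called lower in FGR, are shown beside those of Lhfpl3 and Olig2, which were not called, so that the start regions of genes that changed to different degrees can be read together. All are on the plus strand and run 5′ to 3′ up to the RefSeq start: Pdgfra chr5:75152001-75152250, Enpp6 chr8:46986637-46986886 and Lhfpl3 chr5:22745804-22746053, each 250 bases, and Olig2 chr16:91225300-91225456, which stops after 157 bases, where a GENCODE transcript begins. Capitals mark the E-box CANNTG, the kind of site that basic helix-loop-helix proteins such as Olig1 and Olig2 bind.
Pdgfra: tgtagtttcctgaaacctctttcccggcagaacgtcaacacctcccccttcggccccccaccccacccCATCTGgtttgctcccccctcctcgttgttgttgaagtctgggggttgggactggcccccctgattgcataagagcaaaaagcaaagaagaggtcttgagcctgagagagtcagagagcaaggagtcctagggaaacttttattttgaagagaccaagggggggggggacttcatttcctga
Enpp6: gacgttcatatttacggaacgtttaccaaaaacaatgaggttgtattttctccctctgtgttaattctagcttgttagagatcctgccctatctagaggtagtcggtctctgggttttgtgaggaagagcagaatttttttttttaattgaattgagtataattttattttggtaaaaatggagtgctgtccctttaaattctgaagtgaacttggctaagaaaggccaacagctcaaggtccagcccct
Lhfpl3: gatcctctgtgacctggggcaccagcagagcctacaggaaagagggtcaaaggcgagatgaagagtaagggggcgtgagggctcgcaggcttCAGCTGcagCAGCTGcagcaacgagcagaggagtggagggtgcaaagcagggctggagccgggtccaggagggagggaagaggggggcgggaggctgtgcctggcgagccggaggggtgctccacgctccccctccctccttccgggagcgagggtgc
Olig2: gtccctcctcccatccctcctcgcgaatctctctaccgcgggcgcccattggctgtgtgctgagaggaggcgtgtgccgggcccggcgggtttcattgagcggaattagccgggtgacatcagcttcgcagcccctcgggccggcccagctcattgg
Within the 250 bases before the start, on both strands, an E-box was found in 3 of the 6 genes (Pdgfra, Neu4 and Lhfpl3, the last with 2 copies), against 66.2% of 32851 promoters of the same length. The SOX core ACAANG was found in 3 of 6 (Pdgfra, Olig2 and Enpp6), against 36.3%, and the TATA box TATAAA in Olig2 alone of the 6, beyond the stretch shown, against 12.4%. Matches of different motifs did not overlap. Base composition differed widely: G and C made up 38.4% of the Enpp6 window, 54.4% of that of Pdgfra and 67.2% of that of Lhfpl3, against a median of 52.4% over all promoters. A match is a description of the letters only.

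All 9 precursor genes were lower in both FGR libraries than in WT, and 4 of them, Gpr17, Olig1, Pdgfra and Enpp6, fell by edgeR's quasi-likelihood test at an adjusted p under 0.05. Of the 25561 genes tested, 2.59% were called lower and 38.2% lay lower in both FGR libraries. Among the 11089 genes at a mean of at least 10 CPM the corresponding shares were 3.72% and 35.4%. The median log2 fold change of the 9 genes was -0.42, from -0.98 (Enpp6) to -0.12 (Lhfpl3), against 0.01 over all tested genes. DESeq2 called 3 of the 9 lower, where it called 0.912% of genes lower, and limma-voom called 4, where it called 2.86%. Their summed level was 461.2 CPM in WT, 359.7 in FGR1 and 376.1 in FGR2. With 1 WT library the test took WT to vary like the FGR pair, and any difference of that library in animal, litter or dissection cannot be told apart from the group. Sex was not in the model. By the sex-linked RNAs, WT and FGR1 were like females and FGR2 like a male, so the spread of the FGR pair includes any sex difference. In bulk tissue, fewer cells of a type and less RNA per cell cannot be told apart. These genes were chosen with earlier results of the same libraries known, so their count is a description and no independent evidence.

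**Figure D1:**
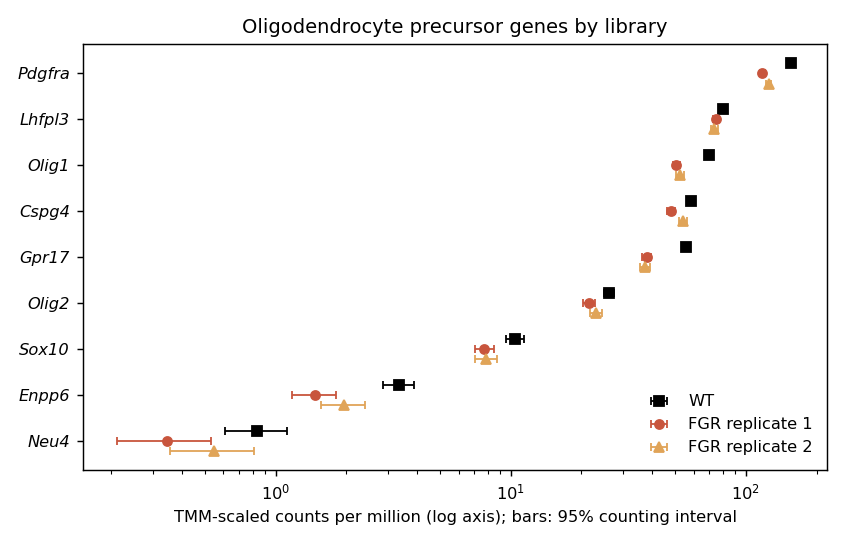
Level of each precursor gene in each library, in TMM-scaled CPM on a log axis; squares are WT, circles FGR1 and triangles FGR2, with 95% Poisson counting intervals. The WT square lies to the right of both FGR points for all 9 genes, and the intervals widen for Enpp6 and Neu4, the genes with the fewest counts.

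Pdgfra, the PDGF receptor alpha gene and the main mitogen receptor of precursors (ENSMUSG00000029231.15), was at 156.3 CPM in WT, 117.5 in FGR1 and 125.3 in FGR2. Both FGR libraries lay well below WT. They differed less from each other than from WT, though beyond counting error. The log2 fold change was -0.37 ± 0.07 (SE), a 1.29-fold fall (edgeR adjusted p = 0.0105), and the call was lost when only genes at a mean of at least 1 CPM were tested (adjusted p = 0.0547). Cspg4, which encodes the NG2 proteoglycan on the precursor surface (ENSMUSG00000032911.6), was at 58.2 CPM in WT, 47.9 in FGR1 and 54.2 in FGR2. FGR2 lay nearer to WT than to FGR1, and the difference did not pass (log2 fold change -0.19 ± 0.08, adjusted p = 0.205). Lhfpl3, a tetraspan membrane protein gene enriched in precursors (ENSMUSG00000106379.1), was at 80.3 CPM in WT, 74.7 in FGR1 and 73.4 in FGR2. This was the smallest difference of the 9 (log2 fold change -0.12 ± 0.06, adjusted p = 0.343).

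Of the 3 transcription factor genes, Olig1 fell and Olig2 and Sox10 did not pass the test. Olig1 (ENSMUSG00000046160.6) was at 70.0 CPM in WT, 50.6 in FGR1 and 52.5 in FGR2, a 1.36-fold fall (log2 fold change -0.44 ± 0.07, adjusted p = 0.00193). The gap between the FGR libraries was within their counting intervals, and both were clear of WT. Its neighbour on chromosome 16, Olig2 (ENSMUSG00000039830.8), was at 26.2 CPM in WT, 21.6 in FGR1 and 23.0 in FGR2. Both FGR libraries lay below WT, and the difference did not pass (log2 fold change -0.23 ± 0.11, adjusted p = 0.271). Sox10, the SOX factor that Olig2 switches on in the lineage (ENSMUSG00000033006.9), was at 10.4 CPM in WT, 7.72 in FGR1 and 7.85 in FGR2. Its log2 fold change, -0.42 ± 0.14, was close in size to that of Olig1, but with 359 to 562 counts per library it did not pass (adjusted p = 0.116).

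The genes of committed precursors had the lowest log2 fold changes of the 9. Gpr17, a G protein-coupled receptor gene that peaks as precursors begin to differentiate (ENSMUSG00000052229.5), was at 55.4 CPM in WT, 37.8 in FGR1 and 37.4 in FGR2. The FGR libraries differed by less than their counting error and lay far below WT, a 1.47-fold fall (log2 fold change -0.56 ± 0.07, adjusted p = 6.45e-04). Enpp6, a choline phosphodiesterase gene of newly forming oligodendrocytes (ENSMUSG00000038173.15), was at 3.34 CPM in WT, 1.47 in FGR1 and 1.95 in FGR2. These values rest on 180, 85 and 89 counts, with both FGR libraries below WT. The fall was 1.97-fold (log2 fold change -0.98 ± 0.23, adjusted p = 0.0304), and the call was lost in DESeq2 (adjusted p = 0.428) and under the filter at 1 CPM (adjusted p = 0.102). Neu4, a sialidase gene (ENSMUSG00000034000.15), had 45 counts in WT, 20 in FGR1 and 25 in FGR2, or 0.836, 0.345 and 0.547 CPM. At this depth its log2 fold change of -0.92 ± 0.45 did not pass (adjusted p = 0.30).

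**Figure D2:**
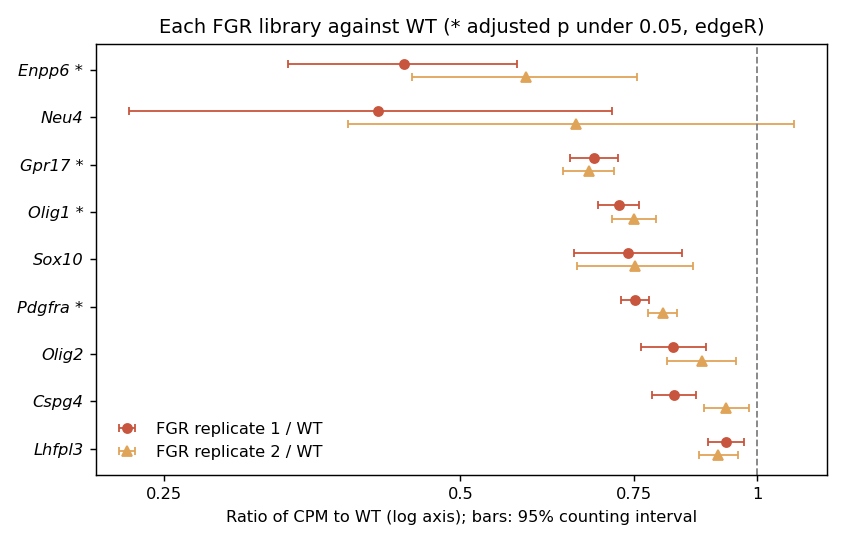
Ratio of each FGR library's CPM to that of WT on a log axis, with exact 95% binomial intervals that cover counting error only; the dashed line marks no difference and asterisks mark genes with an edgeR adjusted p under 0.05. All 18 ratios lie below 1, and the interval of 1 of them, Neu4 in FGR2, reaches past 1.

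Read library by library, Gpr17 stood at 0.683 of WT in FGR1 (95% counting interval 0.646 to 0.722) and at 0.675 in FGR2 (0.635 to 0.716). Cspg4 stood at 0.823 (0.782 to 0.867) and 0.930 (0.882 to 0.981), so the FGR libraries differed from each other beyond counting error for this gene (ratio of FGR2 to FGR1 of 1.13, 1.07 to 1.19). The same held for Pdgfra (1.07, 1.03 to 1.10). For the other 7 genes the interval of that ratio included 1. Both comparisons with WT share the 1 WT library.

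Ratios between genes of 1 library do not depend on how libraries are scaled. There were 0.355 counts of Gpr17 per count of Pdgfra in WT (95% counting interval 0.340 to 0.370), 0.322 in FGR1 (0.307 to 0.338) and 0.298 in FGR2 (0.283 to 0.315). Enpp6 to Pdgfra went from 0.0214 in WT to 0.0125 and 0.0155 in the FGR libraries, and Olig1 to Olig2 from 2.67 to 2.35 and 2.28. The ratio of Lhfpl3 to Pdgfra was higher in FGR, at 0.636 and 0.585 against 0.514 in WT, as was that of Cspg4 to Pdgfra, at 0.408 and 0.432 against 0.372. The WT interval did not overlap those of the FGR libraries for the ratios of Gpr17, Lhfpl3 and Cspg4 to Pdgfra. It overlapped that of FGR2 for Enpp6 to Pdgfra and that of FGR1 for Olig1 to Olig2. These intervals cover counting error only, and no spread of WT was measured.

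Per length, in the authors' RPKM values (scaled by library totals), Olig1 was the most abundant in WT at 33.0 RPKM, followed by Lhfpl3 at 25.5, Pdgfra at 15.9, Olig2 at 11.0, Gpr17 at 10.9, Cspg4 at 4.97, Sox10 at 3.92, Enpp6 at 0.531 and Neu4 at 0.184. In FGR, Olig1 was at 23.6 ± 0.547 RPKM (SD, n = 2) and Lhfpl3 at 22.8 ± 0.362. The lower Olig1 value, 23.2, lay just above the higher Lhfpl3 value, 23.1. The ranges of these neighbours in FGR thus did not overlap, and their difference was not tested. Olig2 and Gpr17, nearly level in WT, were at 9.06 ± 0.395 and 7.17 ± 0.0814 RPKM in FGR. The FGR means of the 9 genes fell in the same order as the WT levels. GENCODE M21 annotates exons of other genes over 4 of the 9 genes, and strand use in counting is not stated. The longest such overlap was with the noncoding RNA gene A930003O13Rik on the opposite strand, over 17.6% of the exon bases of Lhfpl3; that gene had 955, 1044 and 818 counts in WT, FGR1 and FGR2. Gpr17 shares 3.62% of its exon bases with Lims2 on the opposite strand.

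**Figure D3:**
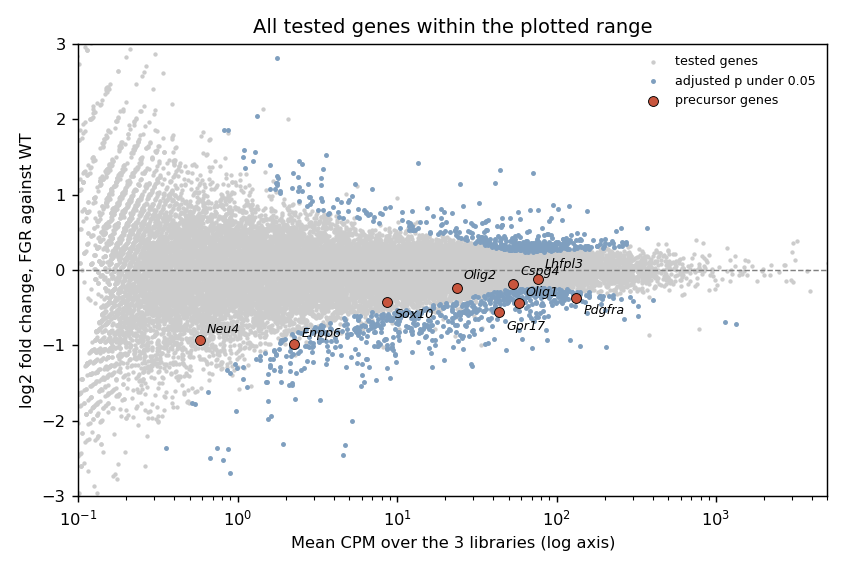
Log2 fold change of FGR against WT by mean CPM (log axis) for all tested genes; blue points passed an edgeR adjusted p under 0.05, red points are the 9 precursor genes, and 119 genes lie outside the axes. The red points all lie below 0, between -0.12 and -0.98, within the range of other genes at their level.

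Other genes enriched in precursors were mostly lower too. Of 17 such genes 2 fell and 0 rose in edgeR, where 2.59% of all tested genes were called lower and 1.66% higher. In both FGR libraries 15 were lower, where 38.2% of all tested genes were, and the median log2 fold change was -0.22. At an unadjusted p under 0.05 in edgeR, 9 were lower and 1 was higher, where 9.92% of all tested genes were lower and 8.41% higher at that threshold. DESeq2 called 1 lower and limma-voom 4, where they called 0.912% and 2.86% of all tested genes lower. C1ql1, a secreted C1q-family gene, fell from 11.3 CPM in WT to 7.14 in FGR1 and 7.11 in FGR2 (adjusted p = 0.0154). Rlbp1, a retinoid-binding protein gene also expressed in other glia, fell from 7.17 to 3.19 and 4.83 CPM (adjusted p = 0.0341). Ncan, a brain proteoglycan gene that astrocytes and neurons also use, had the highest mean CPM of the list over the 3 libraries and was at 707.9, 575.2 and 546.6 CPM (adjusted p = 0.0769). Several precursor-enriched genes hardly differed: Megf11 was at 52.3, 51.9 and 52.2 CPM, Pcdh15 at 66.6, 65.0 and 63.9, and the AMPA receptor auxiliary subunit gene Cacng4 at 82.0, 81.0 and 77.5.

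Of 18 transcription factor genes that act around the lineage, 5 were lower and 8 higher in both FGR libraries, where 38.5% of tested genes were higher in both. By edgeR 0 fell and 2 rose, where 1.66% of tested genes were called higher, and the median was 0.07. At an unadjusted p under 0.05, 1 was lower and 3 were higher, against 9.92% and 8.41% of all tested genes. DESeq2 called 0 in either direction and limma-voom 2 higher; these tools called 0.485% and 1.38% of all genes higher. Nfib, which promotes gliogenesis, rose from 106.3 CPM to 135.3 in FGR1 and 163.6 in FGR2 (adjusted p = 0.0106), and also had the highest mean CPM of the list. Id4, an inhibitor of basic helix-loop-helix factors, was at 94.2, 121.4 and 110.3 CPM (adjusted p = 0.0382). Both factors are also expressed outside the lineage. Of 5 other genes of the PDGF system 0 passed the edgeR test or DESeq2. Pdgfb, at 17.3, 13.1 and 12.6 CPM, was the 1 with an unadjusted p under 0.05 in edgeR (adjusted p = 0.0747) and was called lower by limma-voom. Pdgfa, a ligand of Pdgfra and the gene with the highest mean CPM of them, was at 26.9, 26.3 and 24.7 CPM (adjusted p = 0.764).

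Genes of the steps after Gpr17 lay mostly lower, though few were called. Both FGR libraries were below WT for 7 of 9 committed and 8 of 11 tested myelin genes, where 38.2% of tested genes were. Both were above WT for 2 and 1 of them, where 38.5% of tested genes were. The summed level of the committed genes was higher in FGR, at 343.6 CPM in WT, 361.2 in FGR1 and 364.8 in FGR2. That of the myelin genes was lower, at 161.0, 140.6 and 143.7 CPM. Of 9 measured genes of committed and newly formed oligodendrocytes 0 fell and 1 rose in edgeR, DESeq2 and limma-voom alike. These tools called 1.66%, 0.485% and 1.38% of all tested genes higher. The median was -0.13, and 2 were lower at an unadjusted p under 0.05 in edgeR, where 9.92% of all tested genes were. The riser was Mycl, a MYC family gene also expressed in neurons, up from 51.3 CPM to 73.9 in FGR1 and 71.1 in FGR2 (adjusted p = 6.86e-04). Bcas1, which marks early myelinating cells, was at 8.27, 5.53 and 6.56 CPM (adjusted p = 0.134), and the Src-family kinase gene Fyn, highest in mean CPM, at 130.3, 143.9 and 143.4 CPM. Of 11 tested myelin genes Cnp alone fell in edgeR, from 55.6 to 45.8 and 46.0 CPM (adjusted p = 0.0370), where 2.59% of all tested genes fell. The median over the list was -0.28, and DESeq2 and limma-voom called 0 of them. The myelin basic protein gene Mbp stayed within 52.9 to 53.3 CPM in the 3 libraries, so that the count of Mbp per count of Pdgfra was 0.341 in WT, 0.454 in FGR1 and 0.422 in FGR2. Opalin, a late myelin gene, was at 0 counts in WT and FGR1.

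**Figure D4:**
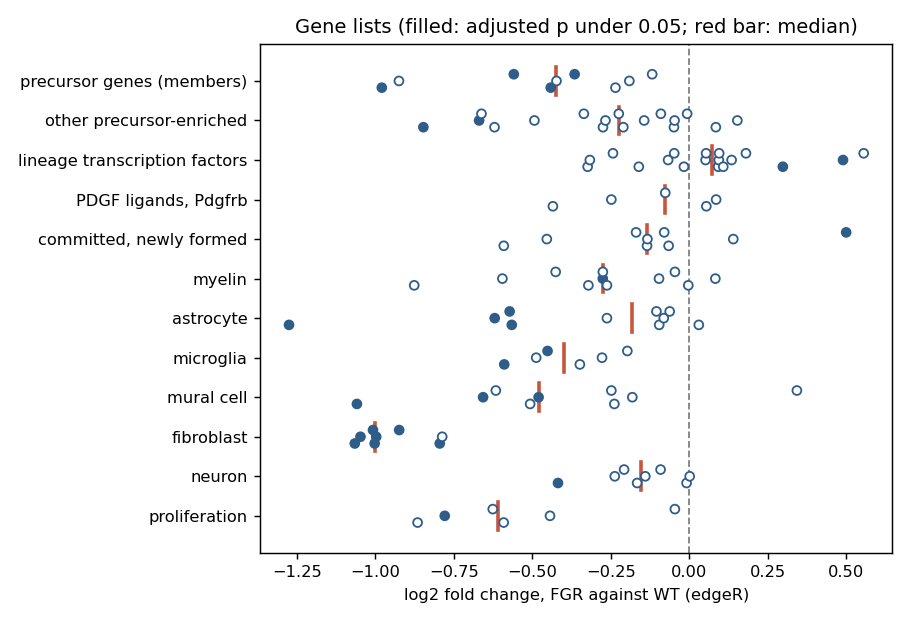
Log2 fold change of FGR against WT for the tested genes of each list except that of the hypothalamus and ventral forebrain. That list, with a median of -3.58, is not drawn. Vertical offsets only separate points, filled circles passed an edgeR adjusted p under 0.05 and red bars are list medians. The precursor genes have a median of -0.42, the other precursor-enriched genes of -0.22 and the lineage transcription factors of 0.07. The medians are -0.40 for microglial, -0.48 for mural cell, -0.18 for astrocyte and -0.15 for neuronal markers. That of the genes of dividing cells is -0.61, and that of the fibroblast markers is the lowest drawn.

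Markers of other cells that express some of the same genes moved as well, and their part in the results was not tested. Pdgfra is also a gene of meningeal fibroblasts. Of 8 fibroblast markers 7 fell, and their summed level was 464.4 CPM in WT, 190.2 in FGR1 and 295.8 in FGR2. The fibroblast sum was thus at 0.410 and 0.637 of WT in the FGR libraries, where Pdgfra was at 0.752 and 0.802. Among them, the collagen gene Col3a1 had the highest mean CPM, at 210.4, 84.9 and 124.6 CPM (adjusted p = 0.00114). Cspg4 is also a gene of pericytes: of 9 mural cell markers 3 fell, and their sum was 193.9 CPM in WT and 125.2 in either FGR library. Rgs5, a G protein signalling regulator gene of pericytes, had the highest mean CPM of them, at 69.7, 52.5 and 47.4 CPM. Of 10 astrocyte markers 4 fell, with sums of 1324, 1058 and 1188 CPM, of 6 microglial markers 2 fell, with sums of 107.8, 80.1 and 85.0 CPM, and of 8 neuronal markers 1 fell, with sums of 5092, 4870 and 4743 CPM. DESeq2 called lower 1 of the fibroblast, 2 of the mural cell, 2 of the astrocyte, 0 of the microglial and 1 of the neuronal markers. In the same order, limma-voom called 8, 3, 5, 2 and 1 lower. Of all tested genes, edgeR called 2.59% lower, DESeq2 0.912% and limma-voom 2.86%. Lower in both FGR libraries were 8 of 8 fibroblast, 8 of 9 mural cell and 6 of 6 microglial markers. The same held for 7 of 10 astrocyte and 6 of 8 neuronal markers, and for 38.2% of tested genes. The microglial sum was at 0.743 and 0.788 of WT, and that of the precursor genes at 0.780 and 0.816. The astrocyte sum was at 0.799 and 0.898, and the neuronal sum at 0.956 and 0.931. A fall of this size was thus not particular to the precursor genes.

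Genes of the hypothalamus and ventral forebrain, regions in front of the midbrain, had the lowest median log2 fold change of the 12 other lists, -3.58. Of 11 such markers 9 fell in edgeR, where 2.59% of tested genes did. DESeq2 called 4 lower and limma-voom 9, where they called 0.912% and 2.86% of all tested genes lower. The sum of the markers was 53.3 CPM in WT, 3.72 in FGR1 and 4.0 in FGR2. Nkx2-4 was at 0 counts in both FGR libraries, and Rax and Dlx5 in FGR1. The part of these lower levels in the results on the precursor genes was not tested.

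The genes at a mean of at least 10 CPM whose ratios to WT in both FGR libraries were nearest to those of the summed precursor genes were Plekhb2, Ltbr and Aldh2. Plekhb2 had log2 ratios of -0.36 and -0.29, which are also the values of the sum. Over 3 libraries such likeness is common: 258 of 11079 genes lay within a distance of 0.1 on the log2 scale.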

How the data were processed

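Trizol was used for RNA extraction and a TruSeq RNA kit for the libraries, per the labels' protocols. The aligner was HISAT2, per the submitters' processing notes; its version and the genome build, annotation and counter were not stated in what was used here. The authors deposited raw read counts per gene, used for all tests, and RPKM values, which were used only to compare levels between genes and matched count, length and total to within 0.1%.

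Counts were tested in edgeR 4.0.16 (R 4.3.3): genes were kept by filterByExpr at a minimum count of 10, scaled by TMM and tested two-sided for FGR (n = 2) against WT (n = 1) with glmQLFTest, the quasi-likelihood F test, over 25561 genes, with Benjamini-Hochberg adjustment, a threshold of 0.05 and 1 residual degree of freedom. CPM values are TMM-scaled. SE is the fold change over the square root of F. The exact 95% binomial and Poisson intervals cover counting error only. Scripts were tested on simulated data.

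The 9 genes, the other lists and the tests were chosen with earlier results of these data known. Beside all 9 genes, the text names the called genes of each list, up to the 4 with the smallest p-values. Also named are the most abundant gene of each list (highest mean CPM, with no length correction) and the 3 genes nearest to the summed 9 genes. The lists that stand for other cells or regions are an exception. Of these, only the most abundant fibroblast and mural cell genes are named, and the hypothalamus and ventral forebrain genes at 0 counts in an FGR library. Others were named after their values were seen. Alternatives were other scalings, filters, DESeq2 1.42.0, limma-voom (limma 3.58.1), a robust fit, a length offset, and leaving out Rn7s1 and Rn7s2 or either FGR library. An offset for GC and length together was added after seeing the data.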

Additional observations from a re-analysis of the deposited data

How the results depend on the processing

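The log2 fold changes of the 9 precursor genes were negative in all 106 values over 12 alternatives. All of these used the same 1 WT library, so the count of signs says nothing about the spread between WT animals. As all 9 genes were lower in both FGR libraries, leaving out either of them could hardly change a sign. Of the 25561 genes tested, 1087 were called, 39.0% of them higher, against 24.4% with scaling by library totals. The count of all called genes was 2057 without a filter on low counts, 301 with the filter at a mean of 1 CPM and 357 in DESeq2. Of the precursor genes, 2 of 8 tested were called with that filter (Gpr17 and Olig1) and 4 or 3 otherwise. Their median log2 fold change moved from -0.42 to -0.46 with library totals, where that of all tested genes moved from 0.01 to -0.03. With the filter at 1 CPM, which left out Neu4, the median was -0.40, though each of the 8 genes left was slightly lower than in the main fit. With the GC and length offset the median was -0.35, and the cause of that shift was not tested. It was -0.42 and -0.43 without either FGR library, where no test was possible for want of residual degrees of freedom. Neu4 had no adjusted p in DESeq2. No paired analysis was possible because the groups share only 1 replicate number. Depth limits Neu4 and Enpp6.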

Other observations

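Dividing is a state that precursors share with other progenitors at this age. In sum, genes of dividing cells differed more between the FGR libraries than the precursor genes did. The 6 genes summed to 122.5 CPM in WT, 80.6 in FGR1 and 112.9 in FGR2. Ccnb1, a mitotic cyclin gene, was the 1 that fell, at 7.38, 3.69 and 4.94 CPM (edgeR adjusted p = 0.0281), where 2.59% of all tested genes fell. Mki67, which marks cycling cells, was at 23.7 CPM in WT, 11.6 in FGR1 and 23.4 in FGR2 (adjusted p = 0.389), and Top2a, a topoisomerase of dividing cells, at 31.9, 15.4 and 27.1 CPM (adjusted p = 0.137). Pcna, a replication clamp gene and the highest of the list in mean CPM, was at 49.1, 45.3 and 49.9 CPM. FGR2 thus lay near WT for Mki67 and Pcna. Cdk1 was at 7.13, 2.83 and 5.08 CPM and Birc5 at 3.27, 1.79 and 2.47. Of the 6 genes 5 were lower in both FGR libraries, against 38.2% of all tested genes, and the median log2 fold change was -0.61. At an unadjusted p under 0.05 in edgeR 4 were lower, where 9.92% of all tested genes were.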
